A study of Arabidopsis thaliana with 9 samples.

Results

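The leaf miRNAs of chr2 mutant plants were compared with those of se-2 mutant plants, to describe which families and which hairpin arms separate a mutant of a chromatin remodeller from a mutant of the miRNA processing machinery. All mature miRNA entries of Arabidopsis thaliana in the deposited count tables were taken, 427 in number. Of these, 53 had 0 counts in all 6 chr2 and se-2 libraries, and 27 repeated the count profile of another entry, so that 347 entries remained. The chr2 plants carry a mutation of CHR2 (also called BRM), which encodes the motor ATPase of SWI/SNF chromatin remodellers. The se-2 plants carry the se-2 allele of SERRATE (SE), and the WT plants are the wild type. The labels give no further allele, ecotype or treatment for any genotype. Each genotype had 3 libraries from leaves of plants aged 3 weeks. Whether the 3 libraries came from separate plants is not stated, so the p-values measure the spread between these libraries, which may be technical. The tables hold no mRNA, and so no check of either mutation could be made. Throughout, chr2 is the name of the mutant, and chromosomes are written out.

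As background, a plant miRNA gene is transcribed into a long primary transcript that folds into a hairpin. The nuclease DCL1 cuts the hairpin together with SE, a zinc finger protein, and with the double-stranded RNA-binding protein HYL1. The product is a duplex of a 5p and a 3p arm. One arm, the guide, is loaded into AGO1 and directs cleavage or translational repression of target mRNAs, and the other, the passenger, is mostly degraded. SWI/SNF complexes move nucleosomes and so act on transcription, and the title of the study places CHR2 also at the primary transcripts, as a partner of SE that limits miRNA production. In leaves, conserved families set leaf polarity, leaf margins, the change from juvenile to adult phase and the response to auxin.

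The summed miRNA counts were 797746 ± 142307 in chr2, 164981 ± 32657 in se-2 and 1416263 ± 157100 in WT (SD, n = 3 each). The chr2 libraries held 637283 to 908635 counts and the se-2 libraries 130482 to 195415, which did not overlap (4.84-fold, exact two-sided permutation test, p = 0.1, the smallest p that 3 against 3 libraries allow). The tables hold miRNA entries only, so these sums mix sequencing depth with the miRNA share of a library and are not its depth. Levels below are CPM, the counts scaled to a common library size (counts per 1e6) after TMM scaling, which makes fold changes relative to the average miRNA entry. At these depths 10 CPM stand for 5.05 to 8.49 counts in a chr2 library and 1.52 to 2.40 counts in an se-2 library, so low levels in se-2 rest on few counts. As a check on the scaling, the libraries were also scaled by the summed counts of entries of family numbers 5000 and above and of early entries later questioned as miRNAs (reference scaling). Those entries held 5048 ± 857.01 counts in chr2, 4547 ± 271 in se-2 and 6798 ± 416.6 in WT (SD, n = 3 each, p = 0.5 for chr2 against se-2, exact permutation test). Reference scaling takes their level as constant between genotypes, which was not tested.

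The mature sequences below are of entries picked from the 12 largest differences in each direction, shown because the results describe them. They are not all of those 12, and some entries left out differed more than some shown. They were read from the RefSeq genome (TAIR10.1) at the coordinates of the RefSeq miRNA annotation, 5′ to 3′, with the seed (bases 2 to 8) in capitals. The first 9 were higher in chr2 than in se-2.
miR157c-3p (chromosome 3, 6244527 to 6244547, minus strand): gCUCUCUAuacuucugucacc
miR157a-3p (chromosome 1, 24913205 to 24913225, minus strand): gCUCUCUAgccuucugucauc
miR157d (chromosome 1, 18026989 to 18027008, minus strand): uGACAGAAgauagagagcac
miR173-5p (chromosome 3, 8236161 to 8236182, plus strand): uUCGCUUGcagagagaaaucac
miR167a-3p (chromosome 3, 8108172 to 8108192, plus strand): gAUCAUGUucgcaguuucacc
miR168b-3p (chromosome 5, 18358803 to 18358823, minus strand): cCCGUCUUguaucaacugaau
miR169b-3p (chromosome 5, 8527592 to 8527613, plus strand): gGCAAGUUguccuucggcuaca
miR164a (chromosome 2, 19520770 to 19520790, plus strand): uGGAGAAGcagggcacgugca
miR158a-3p (chromosome 3, 3366349 to 3366368, minus strand): uCCCAAAUguagacaaagca
The next 9 were lower in chr2 than in se-2.
miR840-5p (chromosome 2, 771492 to 771513, minus strand): aCACUGAAggaccuaaacuaac
miR840-3p (chromosome 2, 771385 to 771405, minus strand): uUGUUUAGgucccuuaguuuc
miR850 (chromosome 4, 7845756 to 7845777, plus strand): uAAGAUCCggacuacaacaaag
miR5026 (chromosome 4, 7844612 to 7844632, plus strand): aCUCAUAAgaucgugacacgu
miR863-3p (chromosome 4, 7846835 to 7846855, plus strand): uUGAGAGCaacaagacauaau
miR846-3p (chromosome 1, 22577662 to 22577682, plus strand): uUGAAUUGaagugcuugaauu
miR156d-3p (chromosome 5, 3456643 to 3456665, minus strand): gCUCACUCucuuuuugucauaac
miR395f (chromosome 1, 26273939 to 26273959, plus strand): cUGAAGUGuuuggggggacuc
miR857 (chromosome 4, 7878198 to 7878218, minus strand): uUUUGUAUguugaagguguau
The passenger arms miR157c-3p and miR157a-3p share the seed CUCUCUA, and both were among the 12 largest differences upwards. The sequence of miR157d has the seed of the miR156 family, GACAGAA, and all 6 tested entries with that seed were higher in chr2, where 45.1% of all tested entries were higher. These 6 hold 3 distinct sequences, and miR156d-5p and miR156j lost their calls on total counts. The seed UGAAGUG of miR395f was shared by 4 tested entries of its family with 2 distinct sequences, all of them lower in chr2, where 37.9% of all tested entries were lower. On reference scaling 2 of the 4 were called lower, and without miR8175 in the reference miR395a came to 0.073 and miR395d to 0.14 (log2).

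The mutants differed in most miRNAs that could be tested. Of the 347 entries, 224 passed the filter on low counts, and the remaining 123 had at most 81 counts over the 6 libraries (median 12). The filter let an entry pass on the libraries of a single mutant. At an adjusted p below 0.05 (edgeR quasi-likelihood), 101 of the 224 entries (45.1%) were higher in chr2 and 85 (37.9%) were lower, and the median log2 fold change of chr2 over se-2 was 0.05. Of the 224 tested entries, 113 were of conserved families (75 guide arms and 38 passenger arms). Another 51 were of younger families named early, and 41 were numbered 5000 and above. Of the 101 entries higher in chr2, 74 belonged to conserved families (43 guide arms and 31 passenger arms), and the largest log2 fold changes among those with a mean of at least 50 CPM were those of miR169b-3p, miR157c-3p and miR173-5p. Of the 85 lower in chr2, 36 were numbered 5000 and above and 22 were of younger families named early, and miR840-5p and miR850 had the largest differences at that level. The younger families had 22 entries higher in chr2 as well. These splits depend on the scaling. Reference scaling moved the median entry by 1.55 on the log2 scale and gave 141 higher and 33 lower, and total counts gave 75 higher and 110 lower. Under all 5 scalings used, 75 entries (33.5% of those tested) were called higher and 23 (10.3%) lower. In 182 of the 224 entries the chr2 and se-2 libraries did not overlap. The 24 largest differences described next, all called under the 5 scalings, were taken from entries that averaged 50 CPM or more and had separate ranges, so that their lack of overlap follows from the choice.

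The 12 largest differences upwards held 7 passenger arms and 10 entries of conserved families, against 38 and 113 of all 224 tested entries. Those 224 include low-level entries and copies of a sequence, which the choice of the 12 left out. The highest of them by level was miR158a-3p, an abundant miRNA of Arabidopsis and its relatives. It had 181842, 136789 and 117725 CPM in the chr2 libraries, against 18632, 19011 and 18809 CPM in the se-2 libraries (log2 fold change 2.95, SE 0.17, adjusted p = 8.22e-14). The chr2 libraries lay far above the se-2 libraries and near the WT libraries, which had 156565, 144335 and 160805 CPM. The passenger arm miR157c-3p had 15454, 13378 and 12451 CPM in the chr2 libraries, against 705, 332 and 434 CPM in the se-2 libraries (log2 fold change 4.83, SE 0.26, adjusted p = 7.04e-14). Its family, like miR156, targets SPL transcription factors and keeps shoots juvenile. The chr2 libraries were also above the WT libraries, which had 7205, 5747 and 7033 CPM.

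The passenger arm miR157a-3p had 5084, 3639 and 3957 CPM in the chr2 libraries, against 402, 257 and 334 CPM in the se-2 libraries (log2 fold change 3.69, SE 0.24, adjusted p = 1.1e-12). The entry miR157d, named without an arm, had 1578, 1536 and 1924 CPM in the chr2 libraries, against 171.4, 65.4 and 100.2 CPM in the se-2 libraries (log2 fold change 3.95, SE 0.27, adjusted p = 2.38e-12). Neither overlapped between the mutants, and in both every chr2 library was above every WT library, as WT had 1313 to 1642 CPM of miR157a-3p and 884 to 931 CPM of miR157d. Leaving out se-2 replicate 2 gave a log2 fold change of 3.365 for miR157d. The guide sequence shared by miR157c-5p and 2 copies had 34797, 36686 and 43924 CPM in the chr2 libraries, against 7358, 5203 and 5239 CPM in the se-2 libraries (log2 fold change 2.70, SE 0.19, adjusted p = 2.98e-12).

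The trigger miR173-5p, which sets off production of secondary siRNAs from TAS1 and TAS2 transcripts, had 189.9, 424 and 245 CPM in the chr2 libraries, against 19.8, 9.35 and 4.17 CPM in the se-2 libraries (log2 fold change 4.83, SE 0.48, adjusted p = 2.81e-09). The se-2 values stand for 3, 2 and 1 counts. The entry miR164a, which targets the CUC boundary genes, had 499, 856.2 and 578 CPM in the chr2 libraries, against 46.2, 23.4 and 54.3 CPM in the se-2 libraries (log2 fold change 3.96, SE 0.32, adjusted p = 4.96e-11). No library of one mutant reached the range of the other for either of them. Leaving out se-2 replicate 3 gave a log2 fold change of 4.0 for miR173-5p, and leaving out se-2 replicate 2 gave 3.37 for miR164a.

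Further passenger arms of regulatory families were among the 12, and miR169b-3p and miR168b-3p rested on few counts in se-2. For miR169b-3p, partner of a guide against NF-YA transcripts, the values were 131, 122 and 129 CPM in the chr2 libraries, against 6.59, 4.67 and 0 CPM in the se-2 libraries (log2 fold change 5.19, SE 0.60, adjusted p = 3.03e-08), and the log2 fold change was 4.11 without se-2 replicate 3. For miR168b-3p, partner of the guide against AGO1 itself, they were 520.2, 610.1 and 425.6 CPM in the chr2 libraries, against 13.2, 18.7 and 29.2 CPM in the se-2 libraries (log2 fold change 4.59, SE 0.34, adjusted p = 5.8e-12). These se-2 values come from 1, 1 and 0 counts of miR169b-3p and 2, 4 and 7 counts of miR168b-3p. For miR167a-3p, whose guide targets ARF6 and ARF8, they were 2154, 1984 and 1746 CPM in the chr2 libraries, against 171.4, 88.8 and 96.0 CPM in the se-2 libraries (log2 fold change 4.09, SE 0.27, adjusted p = 1.1e-12). All 3 arms had separate ranges in the mutants, and WT lay between the mutants for miR169b-3p, miR168b-3p and miR167a-3p by the group means. The other entries of this set were miR397a (log2 3.96, and 2.86 without se-2 replicate 3), miR396a-3p (3.74) and miR162a-5p (2.89).

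**Figure D1:**
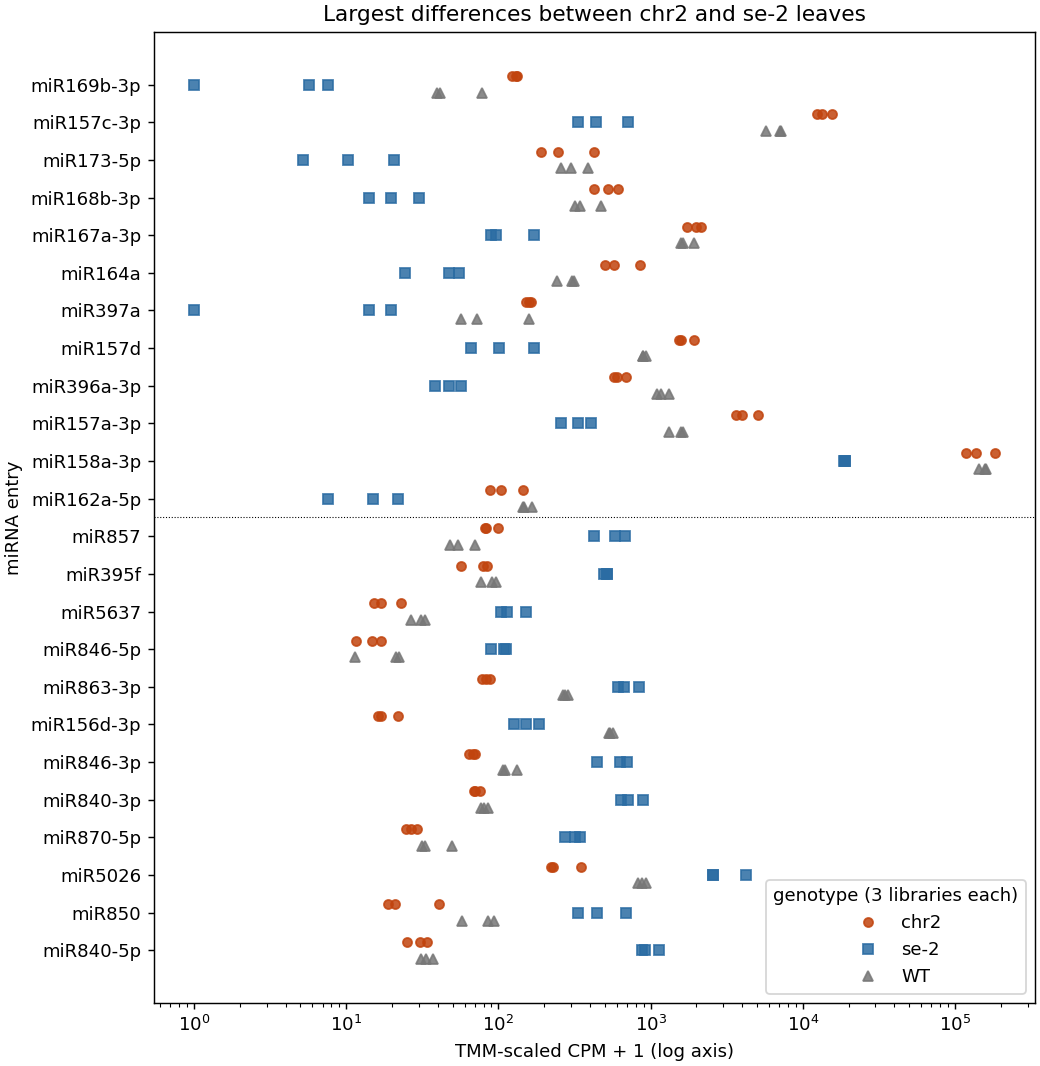
TMM-scaled CPM plus 1 on a log axis for the 12 largest differences in each direction, with 1 point per library (chr2, se-2 and WT, 3 each), and entries above the dotted line higher in chr2. The chr2 and se-2 points do not overlap for any of the 24 entries, and WT lies nearer chr2 for most of them. In some entries WT lies above both mutants, among them miR396a-3p and miR156d-3p, the latter at 566, 535 and 539.6 CPM in the WT libraries.

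The 12 largest differences downwards came from 10 hairpins, only 2 of the entries (miR156d-3p and miR395f) being of conserved families. Of all 224 tested entries, low-level entries and copies included, 113 were of conserved families. The hairpin MIR840 lies on the strand of the protein-coding gene AT2G02750, in an exon outside its coding sequence, and both of its arms were lower in chr2. The arm miR840-5p had 23.9, 33.0 and 29.7 CPM in the chr2 libraries, against 1127, 874 and 918 CPM in the se-2 libraries (log2 fold change -5.05, SE 0.25, adjusted p = 7.26e-15). The arm miR840-3p had 75.0, 68.3 and 69.3 CPM in the chr2 libraries, against 890.1, 640.4 and 709.6 CPM in the se-2 libraries (log2 fold change -3.39, SE 0.22, adjusted p = 1.1e-12). In both arms the chr2 libraries were close to WT, which had 35.99, 32.5 and 29.98 CPM of miR840-5p and 79.2, 76.3 and 84.8 CPM of miR840-3p, and the se-2 libraries stood apart.

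The entry miR5026, the most abundant of the 12, had 227, 221 and 348 CPM in the chr2 libraries, against 4246, 2585 and 2588 CPM in the se-2 libraries (log2 fold change -3.57, SE 0.26, adjusted p = 7.13e-12). The entry miR850 had 39.9, 20.02 and 17.8 CPM in the chr2 libraries, against 686, 332 and 442 CPM in the se-2 libraries (log2 fold change -4.21, SE 0.34, adjusted p = 4.96e-11). The arm miR863-3p, which is known in Arabidopsis to target the SE transcript, had 81.4, 87.2 and 77.2 CPM in the chr2 libraries, against 843.9, 668 and 614 CPM in the se-2 libraries (log2 fold change -3.10, SE 0.22, adjusted p = 3.09e-12). In all 3 the WT libraries lay between the mutants, and for miR863-3p they had 285, 271 and 263 CPM.

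The hairpin MIR846, which targets jacalin-related lectin genes, was lower in chr2 in both arms. The values of miR846-3p were 67.0, 63.6 and 69.3 CPM in the chr2 libraries, against 442, 696 and 626 CPM in the se-2 libraries (log2 fold change -3.15, SE 0.24, adjusted p = 8.9e-12). For miR857, which targets a laccase gene under low copper, they were 81.4, 98.9 and 81.2 CPM in the chr2 libraries, against 422, 682 and 580.2 CPM in the se-2 libraries (log2 fold change -2.69, SE 0.24, adjusted p = 2.63e-10). For miR395f, which targets ATP sulphurylases and a sulphate transporter, they were 55.8, 77.7 and 83.1 CPM in the chr2 libraries, against 494, 519 and 518 CPM in the se-2 libraries (log2 fold change -2.82, SE 0.23, adjusted p = 5.18e-11). The chr2 libraries of miR857 were all above the highest WT library, at 68.7 CPM, while those of miR395f overlapped the WT libraries, which had 90.4, 76.3 and 95.8 CPM. The other entries were miR870-5p (log2 -3.56), miR846-5p (-2.94) and miR5637 (-2.83).

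The entry miR2939 stood outside this naming rule for its low level and is added after its values were seen. It had 0 counts in all chr2 and WT libraries, against 8, 10 and 21 counts in the se-2 libraries. Set against a floor of 3 counts over the 3 chr2 libraries, its CPM was at least 41.2-fold lower in chr2. In the other direction, miR164c-3p had 25, 31 and 25 counts in the chr2 libraries, against 0 in all se-2 libraries, so that its CPM was at least 8.47-fold higher in chr2. Over all 347 entries, 7 had no count in any chr2 library and 19 had none in any se-2 library, and the summed counts, 4.84-fold higher in chr2, differ in the same direction.

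Neighbouring hairpins of different families were then compared, a choice made after the values were seen. Tested entries of different families with a gap of under 5000 nt formed 4 groups with 14 entries. On chromosome 4, between 7844612 and 7846855 on the plus strand, all 4 tested entries (miR5026, miR850 and both arms of miR863) were lower in chr2, miR863-5p with a log2 fold change of -2.42, a call it lost on reference scaling without miR8175 (-0.54, adjusted p = 0.0989). On chromosome 1, miR400 and miR5654-3p, 380 nt apart, were both higher in chr2 (log2 0.60 and 1.72), miR400 not under all 5 scalings. In the group of miR857 and miR397b, miR5996 (log2 -1.705), miR841a-3p (-1.25) and miR841a-5p (-1.40) were lower, but not under all 5 scalings. Neighbours did not always go together. On the minus strand of chromosome 4, miR857 (7878198 to 7878218) was lower in chr2, while miR397b (7878730 to 7878750), 511 nt away and likewise a laccase regulator, was higher, with 239, 309.7 and 372 CPM in the chr2 libraries, against 105, 192 and 142 CPM in the se-2 libraries (log2 fold change 1.04, SE 0.27, adjusted p = 0.00119), although under total counts it did not keep that call. On chromosome 1, miR846 was lower in chr2, while miR842, 211 nt upstream of miR846-5p and also directed at jacalin-related lectin genes, had 78.2, 28.3 and 77.2 CPM in the chr2 libraries, against 72.5, 37.4 and 45.9 CPM in the se-2 libraries (log2 fold change 0.24, SE 0.39, adjusted p = 0.579), with overlapping ranges.

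Among the 10 most abundant sequences, the mutants differed in order as well as in level. In chr2 the highest was miR158a-3p, and in se-2 it was miR166a-3p, the guide against HD-ZIP III genes that set leaf polarity. The miR166 guide had 87134, 57437 and 75353 CPM in the chr2 libraries, against 81364, 74379.6 and 79877 CPM in the se-2 libraries (log2 fold change -0.10, SE 0.16, adjusted p = 0.573), and its ranges overlapped. This comparison turns with the processing, since reference scaling gave a log2 fold change of 1.44 and leaving out se-2 replicate 3 gave -0.48 (adjusted p = 0.0156) and se-2 replicate 2 gave -0.45 (adjusted p = 0.0199). The guide miR396b-5p, against growth-regulating factors (GRF), had 33404, 33924 and 25560.4 CPM in the chr2 libraries, against 4147, 4160.2 and 4437 CPM in the se-2 libraries (log2 fold change 2.87, SE 0.18, adjusted p = 5.05e-13), without overlap.

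The overlapping sequences miR161-1 and miR161-2, which target PPR genes, had nearly the same counts in every library and are 1 measurement here, with 17354 to 21658 CPM in chr2, against 6040.0 to 6593 CPM in se-2 (log2 1.66). The copper-responsive miR408-3p had 23942, 20233 and 32066 CPM in the chr2 libraries, against 8452, 11092 and 10740.2 CPM in the se-2 libraries (log2 fold change 1.33, SE 0.21, adjusted p = 2.86e-06). Every chr2 library of miR408-3p was above every se-2 library and also above every WT library, which had 6257, 8333 and 10176 CPM. The guide miR159b-3p, against MYB33 and MYB65, had 15488, 16793 and 26109 CPM in the chr2 libraries, against 10733, 7629 and 7488 CPM in the se-2 libraries (log2 fold change 1.18, SE 0.20, adjusted p = 9.99e-06), and its log2 fold change was 0.71 without se-2 replicate 3. The related miR159a barely passed the test (log2 0.45, adjusted p = 0.0479) with overlapping ranges, and reached -0.02 without se-2 replicate 3 (adjusted p = 0.935). It also lost its call without se-2 replicate 1 (0.32, adjusted p = 0.199), se-2 replicate 2 (0.06, adjusted p = 0.806) or chr2 replicate 3 (0.10, adjusted p = 0.646). The guide miR319b, against TCP genes, had 15754, 9848 and 14391 CPM in the chr2 libraries, against 18388, 21175 and 18354 CPM in the se-2 libraries (log2 fold change -0.53, SE 0.18, adjusted p = 0.0102), but 0.99 on reference scaling, -0.87 without se-2 replicate 1 and -0.97 without se-2 replicate 3.

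The lists by function or age are described by counts and medians, to be read against 45.1% higher, 37.9% lower and a median of 0.05 over all tested entries. Families listed as conserved had 134 entries, of which 113 were tested, 74 were higher in chr2 and 14 were lower, with a median log2 fold change of 1.13 (2.68 on reference scaling and 0.61 on total counts). Of 38 tested passenger arms, 31 were higher and 2 lower (median 1.80), and of 75 tested guide arms 43 were higher and 12 lower (median 0.57). On total counts 31 guide arms were higher and 29 lower (median 0.05), and on reference scaling 65 were higher and 3 lower. For the passenger arms those scalings gave 23 higher and 4 lower, and 35 higher and 1 lower. The 2 lower passenger arms were miR156d-3p and miR393a-3p, of which miR393a-3p was no longer called on reference scaling (log2 -0.22, adjusted p = 0.642). The difference between these lists was not tested as such, and the arm ratios below bear on it.

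All 10 tested entries of families tied to the silencing machinery were higher in chr2 (median 2.32, and 3.89 on reference scaling), and 9 of them on total counts. The guide miR162b-3p, against DCL1, had 2298, 2539 and 2194 CPM in the chr2 libraries, against 382, 323 and 388 CPM in the se-2 libraries (log2 fold change 2.69, SE 0.22, adjusted p = 4.63e-11). The guide miR403-3p, against AGO2, had 7211, 6032 and 5915 CPM in the chr2 libraries, against 1793, 1449 and 1544 CPM in the se-2 libraries (log2 fold change 2.0, SE 0.20, adjusted p = 1.31e-09). The guide miR168a-5p, against AGO1, had 5248, 4919 and 3453 CPM in the chr2 libraries, against 1424, 2089 and 1991 CPM in the se-2 libraries (log2 fold change 1.30, SE 0.21, adjusted p = 4.52e-06), and 0.86 without se-2 replicate 1. None of the 3 overlapped between the mutants.

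Low-copper families, whose targets are copper proteins, had 10 of 11 tested entries higher in chr2 (median 1.78), miR857 being the exception, and total counts gave 9. The guide miR398b-3p, against the superoxide dismutases CSD1 and CSD2, had 7228, 7517 and 5908 CPM in the chr2 libraries, against 1839, 3263 and 2697 CPM in the se-2 libraries (log2 fold change 1.40, SE 0.22, adjusted p = 2.59e-06), with 0.91 without se-2 replicate 1. Its passenger arm miR398b-5p was more abundant, with 11380.5, 8575 and 13555 CPM in the chr2 libraries, against 3151, 3482 and 2918 CPM in the se-2 libraries (log2 fold change 1.81, SE 0.22, adjusted p = 6.53e-08). Each of these arms is counted for 2 entries of the same sequence. Families with triggers of secondary siRNAs, taken with both arms, had 9 of 11 higher and 1 lower (median 1.66), against 6 higher and 2 lower on total counts and 10 higher and 0 lower on reference scaling. The entry miR472-5p was lower (log2 -1.06, adjusted p = 0.000145), but higher on reference scaling (0.49), and the other arm, miR472-3p, was not called. The TAS3 trigger miR390a-5p had 10433, 7767 and 8794 CPM in the chr2 libraries, against 6230.4, 5894 and 6407 CPM in the se-2 libraries (log2 fold change 0.54, SE 0.18, adjusted p = 0.00724), a call lost without se-2 replicate 1 (0.25), 2 (0.20) or 3 (0.18).

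Auxin-related families had 10 of 14 tested entries higher in chr2 and 3 lower (median 1.24), against 8 higher and 4 lower on total counts and 11 higher and 0 lower on reference scaling. The guide miR167a-5p had 10324, 13149 and 10120.4 CPM in the chr2 libraries, against 2828, 3669 and 3209.9 CPM in the se-2 libraries (log2 fold change 1.79, SE 0.19, adjusted p = 3.49e-09). Phase-change families had 12 of 18 higher and 3 lower (median 1.06), against 9 higher and 5 lower on total counts and 14 higher and 1 lower on reference scaling. The entry miR156d-5p, a copy of the shared miR156 guide, had 12654, 13799 and 16895 CPM in the chr2 libraries, against 11254, 8657 and 7651 CPM in the se-2 libraries (log2 fold change 0.65, SE 0.18, adjusted p = 0.00226), and lost its call without se-2 replicate 2 (log2 0.31) or 3 (0.16). Its value does not stand for the other tested copies, miR156a-5p, miR156b-5p and miR156e, which were also called higher. In se-2 it had 1707, 1852 and 1833 counts, against 1290, 1388 and 1365 of miR156a-5p. In chr2 the 2 entries were nearly equal, with 7930, 11717 and 8534 counts against 7875, 11637 and 8476. Families of leaf polarity and shape had 16 of 25 higher and 2 lower (median 1.13), against 13 higher and 9 lower on total counts and 25 higher and 0 lower on reference scaling. Families against NF-YA and HAM genes had 9 of 21 higher and 0 lower (42.9% higher, near the 45.1% of all tested entries, median 0.39). That list turned with the scaling, with 5 higher and 9 lower on total counts (median -0.14) and 21 higher and 0 lower on reference scaling. The 3 most abundant entries of that last list overlapped between the mutants, with log2 fold changes of 0.73 for miR171c-5p (0.30 without se-2 replicate 2 and 0.26 without se-2 replicate 3, no longer called), 0.06 for miR171a-5p and -0.15 for miR171a-3p (-0.68 and called without se-2 replicate 3, but 1.44 on reference scaling). The miR159 and miR319 hairpins, which are cut from the loop towards the base, had 5 of 7 tested entries higher and 2 lower (median 0.57), against 2 higher and 2 lower on total counts (median 0.05) and 7 higher and 0 lower on reference scaling.

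Young and late-numbered families went the other way or were mixed. Families listed as younger and named early had 22 of 51 tested entries higher and 22 lower (median -0.13), against 16 higher and 25 lower on total counts and 30 higher and 13 lower on reference scaling (median 1.42). The 3 tested entries of families cut by DCL4 instead of DCL1 were all lower in chr2 (median -2.01, and -0.45 on reference scaling). The arm miR822-5p had 633, 616 and 663 CPM in the chr2 libraries, against 2782, 2519.5 and 2388 CPM in the se-2 libraries (log2 fold change -2.01, SE 0.20, adjusted p = 1.84e-09), and WT, with 1999, 1962 and 1899 CPM, was nearer se-2. The call of miR822-5p and of the other 2 entries did not survive reference scaling without miR8175. Of the 4 tested miR395 entries, all were lower in chr2 (median -2.29), but they hold 2 distinct sequences and 2 of them, miR395b and miR395f, kept the call on reference scaling (median -0.73). Low-phosphate families had 1 of 5 tested entries higher and 2 lower. The higher one, miR827, had 71.8, 66.0 and 31.7 CPM in the chr2 libraries, against 6.59, 14.0 and 29.2 CPM in the se-2 libraries (log2 fold change 1.67, SE 0.47, adjusted p = 0.00235), a call lost without se-2 replicate 1 (log2 1.1, adjusted p = 0.0691) or 2 (1.21, adjusted p = 0.0609). Of the 3 tested NLR and defence entries, miR825 was higher (log2 1.27, and 0.76 without se-2 replicate 1), miR472-5p lower and miR472-3p not called (log2 -0.21).

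Entries numbered 5000 and above had 3 of 41 tested entries higher and 36 lower (median -1.71). On reference scaling, which is built from this list and so holds it near 0 by construction, its median was -0.16 with 5 higher and 12 lower, and 0.15 when miR8175 was left out of the reference. The highest of them, miR8175, had 4178, 3379 and 3789 CPM in the chr2 libraries, against 13397, 6526 and 6499 CPM in the se-2 libraries (log2 fold change -1.22, SE 0.24, adjusted p = 5.49e-05, but 0.40 on reference scaling and 0.65 with it left out of the reference), and WT had 1332, 1147 and 1097 CPM, below both mutants. The entries numbered between the early-named families and 5000 had 1 of 10 higher and 7 lower (median -1.84, but 0.03 on reference scaling without miR8175), and all 4 tested early entries later questioned as miRNAs were lower (median -1.66, but 0.20 on that same scaling). The exception with the highest level among those in between was miR1886-1, with 388, 234 and 285 CPM in the chr2 libraries, against 92.3, 74.8 and 75.1 CPM in the se-2 libraries (log2 fold change 1.92, SE 0.28, adjusted p = 8.88e-07).

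**Figure D2:**
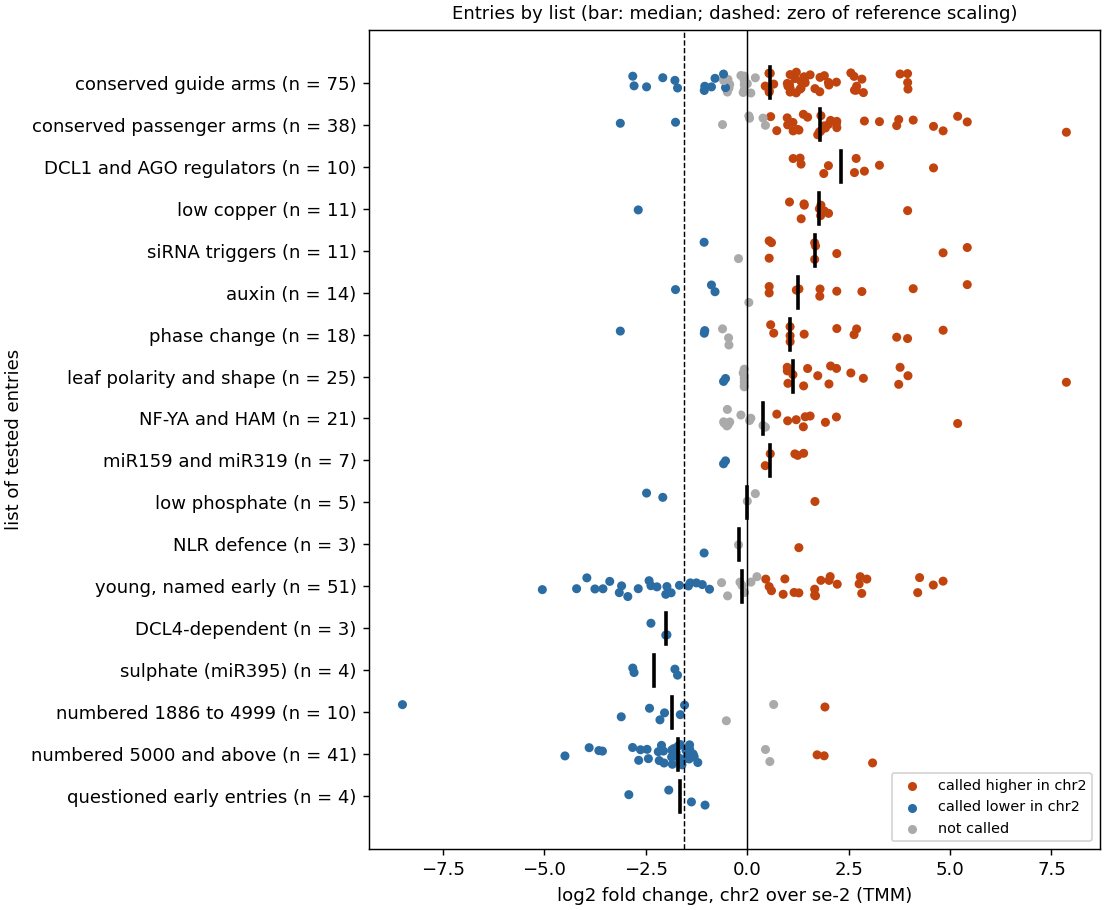
The log2 fold change of chr2 over se-2 (TMM scaling) of each tested entry by list, with 1 point per entry, black bars for list medians and a dashed line where the zero of reference scaling falls. Points of the machinery list lie wholly to the right of zero, and 36 of the 41 entries numbered 5000 and above are called to the left of it, most of them near the dashed line (median -0.16 on reference scaling).

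The share of passenger arms in all counts of conserved families needs no library scaling. It was 5.60 ± 0.115% in chr2, 1.60 ± 0.0869% in se-2 and 5.62 ± 0.679% in WT (SD, n = 3 each). The chr2 libraries, at 5.53 to 5.74%, lay wholly above the se-2 libraries, at 1.505 to 1.67% (exact two-sided permutation test, p = 0.1, the smallest possible). The range of WT, 4.97 to 6.32%, held all chr2 libraries. Without miR398, whose passenger arm is abundant, the share was 3.52 ± 0.403% in chr2, 0.755 ± 0.0641% in se-2 and 2.52 ± 0.233% in WT (SD, n = 3 each). Counted once per distinct sequence it was 11.4 ± 0.581% in chr2, 4.15 ± 0.144% in se-2 and 10.6 ± 0.790% in WT (SD, n = 3 each). These shares depend on the makeup of the pool as well as on the balance of the arms. The guide arm held 99.8% of the miR166a counts in chr2 and 99.9% in se-2. The miR166 family took a mean of 12.8% of the counts over distinct sequences in chr2, against 29.6% in se-2. How far this makeup accounts for the difference was not tested.

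The balance of the arms was then tested hairpin by hairpin, as the change in the 5p to 3p ratio between the mutants. Of 62 hairpins with enough counts, 32 (51.6%) differed at an adjusted p below 0.05 (edgeR, arm by genotype), 15 towards the 5p arm in chr2 and 17 towards the 3p arm. Among the 44 conserved hairpins tested, 25 differed, with the passenger arm favoured in chr2 in 17 and the guide arm in 8. Many arms are shared by copies of a family, and of the 26 hairpins with both arm sequences to themselves 10 differed. Where an arm is shared, the ratio alone cannot tell a change in arm balance from a change in level between the copies. Hairpins with the shared miR156 guide were called both ways. miR156a, miR156b, miR156d and miR156f went towards the 5p arm in chr2, and miR156c went towards the 3p arm. Of the hairpins described below, only miR164c, miR173, miR824 and miR840 have both arm sequences to themselves. WT was nearer chr2 than se-2 in 27 of the 32 hairpins by mean log2 ratio. Of 47 hairpins with both arms tested as entries, 26 had both arms higher in chr2, 6 had both lower and 3 had arms in opposite directions.

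Hairpins favouring the passenger arm in chr2 included miR157c, miR167a, miR168b, miR169b, miR390b and miR164c. The 3p share of both arms of miR157c was 30.8, 26.7 and 22.1% in the chr2 libraries, against 8.75, 5.997 and 7.65% in the se-2 libraries (log2 difference of the 5p to 3p ratio -2.14, adjusted p = 1e-07). In miR167a it was 17.3, 13.1 and 14.7% in the chr2 libraries, against 5.71, 2.36 and 2.90% in the se-2 libraries (log2 difference of the 5p to 3p ratio -2.33, adjusted p = 1e-07), and in miR168b it was 9.35, 11.3 and 11.6% in the chr2 libraries, against 0.985, 0.937 and 1.52% in the se-2 libraries (log2 difference of the 5p to 3p ratio -3.28, adjusted p = 9.7e-07). The ranges were separate in all 3, and chr2 was close to WT in miR157c, with 27.7, 22.8 and 29.1% in the WT libraries. Their 5p arms are shared with copies of the same sequence, so the shares understate the passenger arm of the single hairpin where copies added counts to the 5p arm. The hairpin miR168a, with the 5p sequence of miR168b, was not called (log2 difference 0.17, adjusted p = 0.66). Its mean 3p share was 8.21% in chr2 and 9.05% in se-2. With the 5p sequences of miR157c and miR390b, miR157a (-1.04) and miR390a (-1.66) were called towards the 3p arm as well. Whether arm balance or the level of the copies changed was not tested.

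In miR169b the 3p share was 34.5, 35.1 and 50.4% in the chr2 libraries, against 11.1, 6.25 and 0% in the se-2 libraries (log2 difference of the 5p to 3p ratio -3.67, adjusted p = 0.00236), with 1, 1 and 0 counts of the 3p arm in se-2, and the log2 difference was -4.38 without se-2 replicate 1 and -2.85 without se-2 replicate 3. In miR390b it was 0.715, 1.02 and 0.916% in the chr2 libraries, against 0.106, 0 and 0% in the se-2 libraries (log2 difference of the 5p to 3p ratio -4.93, adjusted p = 1.7e-06), resting on 1 count of the 3p arm in all se-2 libraries, and the log2 difference was -9.22 without se-2 replicate 1, where none is left. In miR164c it was 39.7, 29.2 and 29.8% in the chr2 libraries, against 0 of 13 counts over the se-2 libraries, which allows a share of up to 23.1% (counting error only). The miR164c difference passed the test (adjusted p = 0.0104) but not without se-2 replicate 1 (adjusted p = 0.0715) or replicate 3 (adjusted p = 0.079).

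Other hairpins went the opposite way. In miR156d the 3p share was 0.164, 0.111 and 0.0937% in the chr2 libraries, against 1.61, 1.44 and 1.93% in the se-2 libraries (log2 difference of the 5p to 3p ratio 3.80, adjusted p = 9.36e-11), and it was 3.81, 3.47 and 3.90% in WT, so that the passenger arm was lowest in chr2. Its 5p arm is shared by 6 entries. As given above, miR156d-5p held nearly the counts of its copy miR156a-5p in chr2, and more than that copy in se-2. The 3p arm had 13, 13 and 8 counts in the chr2 libraries, against 28, 27 and 36 in the se-2 libraries. The 3p share of miR156d is therefore not the arm balance of this hairpin alone. In miR393a, whose guide targets the auxin receptors TIR1 and AFB, the 3p share was 5.54, 3.23 and 4.66% in the chr2 libraries, against 30.4, 23.3 and 27.8% in the se-2 libraries (log2 difference of the 5p to 3p ratio 2.98, adjusted p = 6.45e-06). In WT it was 17.6, 28.5 and 28.8%, so that the ranges of chr2 and WT were separate as well.

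In miR173 the functional 5p arm made up 41.6, 66.8 and 45.6% of both arms in the chr2 libraries, against 13.0, 15.4 and 5.88% in the se-2 libraries (log2 difference of the 5p to 3p ratio 3.13, adjusted p = 0.000715), the se-2 values standing for 3, 2 and 1 counts of the 5p arm. In miR824, a regulator of the stomatal gene AGL16, the 3p share was 81.7, 72.5 and 78.5% in the chr2 libraries, against 53.1, 40.6 and 41.8% in the se-2 libraries (log2 difference of the 5p to 3p ratio -2.11, adjusted p = 2.1e-05). Both arms of miR173 and of miR824 are sequences of their own. For miR840, added after its values were seen, the 3p share was 75.8, 67.4 and 70.0% in the chr2 libraries, against 44.1, 42.3 and 43.6% in the se-2 libraries (log2 difference of the 5p to 3p ratio -1.67, adjusted p = 7.84e-06), and WT, with 68.8, 70.2 and 73.9%, was close to chr2.

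**Figure D3:**
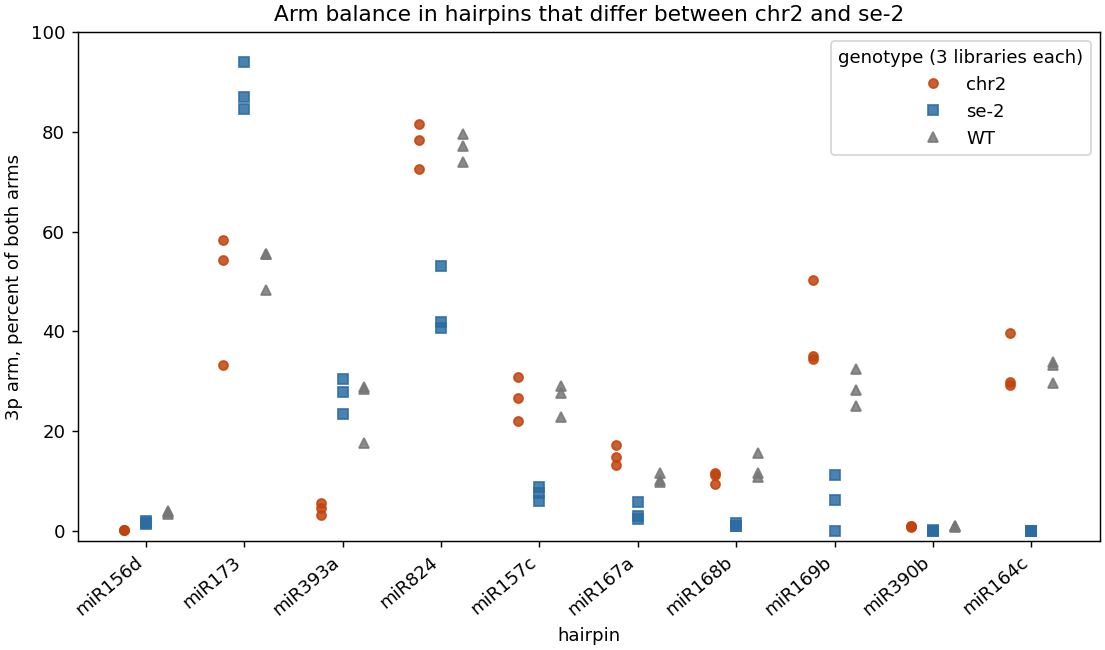
The 3p arm as a percent of both arms in the 10 hairpins with the largest differences in arm ratio, with 1 point per library (chr2, se-2 and WT, 3 each). The chr2 and se-2 points are separate in all 10, and WT lies near chr2 in most, with miR156d and miR393a as exceptions.

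Summed by family over distinct sequences, 45 of 107 tested families (42.1%) were higher in chr2 and 51 (47.7%) were lower by edgeR, with 22 lower on reference scaling. The scaling of this smaller table was less stable (TMM factors of 1.67 to 2.56 in se-2), so shares of the counts over distinct sequences, which need no scaling, are given instead of fold changes. The miR158 family took 29.8, 26.7 and 20.9% in the chr2 libraries, against 6.76, 7.49 and 7.39% in the se-2 libraries. The miR157 family took 9.19, 10.6 and 10.9% in the chr2 libraries, against 3.06, 2.27 and 2.37% in the se-2 libraries, and the miR396 family 6.06, 7.47 and 5.38% in the chr2 libraries, against 1.87, 1.87 and 1.92% in the se-2 libraries. All 3 were higher in every chr2 library than in any se-2 library.

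In se-2 the pool was instead led by miR166, which took 14.1, 11.1 and 13.2% in the chr2 libraries, against 28.9, 28.9 and 31.0% in the se-2 libraries. The miR319 family took 3.04, 2.53 and 3.48% in the chr2 libraries, against 7.04, 8.79 and 7.71% in the se-2 libraries, and the miR172 family, which targets AP2-like genes, took 0.303, 0.624 and 0.313% in the chr2 libraries, against 0.834, 1.42 and 1.42% in the se-2 libraries. These 3 shares were lower in every chr2 library than in any se-2 library, while the family test with TMM called none of the 3 different. Opposite to the shares, DESeq2 size factors called miR166 and miR319 higher in chr2, and reference scaling called all 3 higher. With DESeq2 size factors the log2 fold change was 0.64 for miR166 (adjusted p = 0.000832) and 0.46 for miR319 (adjusted p = 0.0147) by edgeR, and on reference scaling it was 1.44 for miR166, 1.26 for miR319 and 1.07 for miR172 (adjusted p = 0.00154). A share falls where others gain, so these values describe the makeup of the pool and not amounts. In WT, miR166 took 12.7, 13.2 and 13.0% and miR319 1.94, 2.12 and 2.12%.

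The largest family changes upwards by the test were miR847, miR861, miR164, miR5012, miR157, miR158, miR773 and miR396. Of these miR847, miR861 and miR5012 each rested on few counts in se-2, where miR861 had 3 counts over both arms and all libraries. Their shares were at most 0.0139% in every library of both mutants. The miR164 family took 0.112, 0.204 and 0.145% in the chr2 libraries, against 0.0397, 0.0217 and 0.0388% in the se-2 libraries. The largest changes downwards were miR2939, miR5027, miR850, miR840, miR5629, miR8121, miR870 and miR5026, of which miR5026 took 0.0366, 0.0427 and 0.0609% in the chr2 libraries, against 1.51, 1.002 and 1.003% in the se-2 libraries and miR840 0.0160, 0.0195 and 0.0173% in the chr2 libraries, against 0.715, 0.587 and 0.631% in the se-2 libraries. The shares of miR164, miR5026 and miR840 did not overlap between the mutants.

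**Figure D4:**
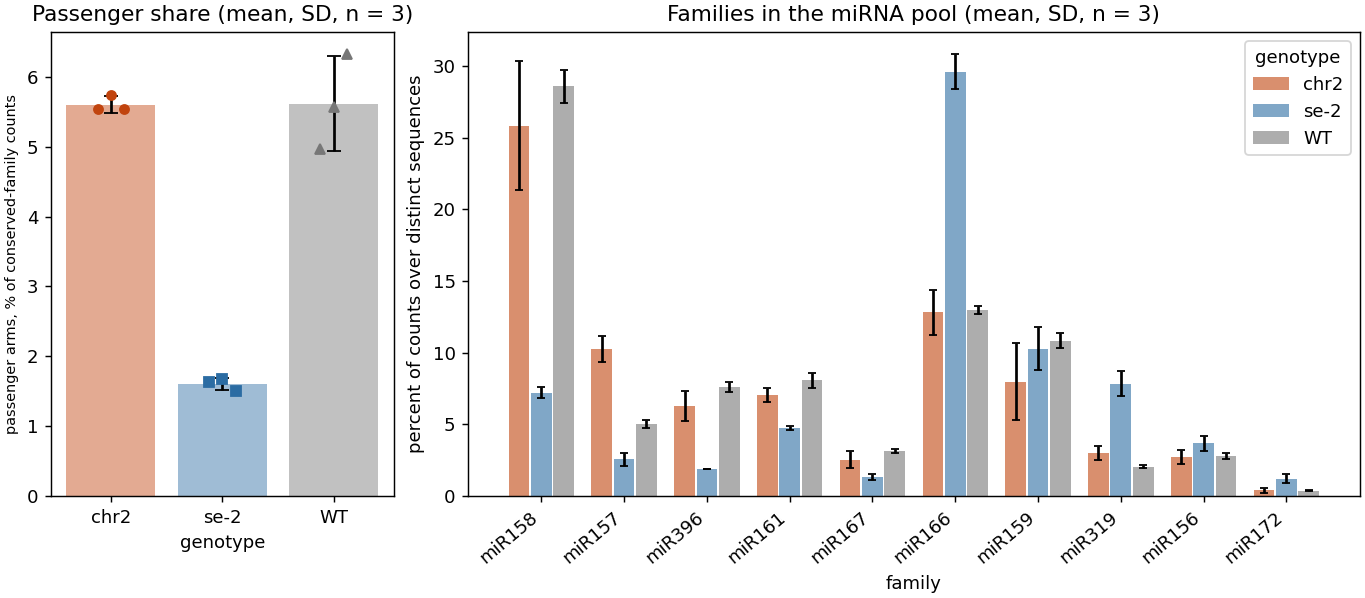
Left, passenger arms as a percent of conserved-family counts (bars are means, error bars SD, points the 3 libraries of chr2, se-2 and WT), and right, the share of 10 families in the counts over distinct sequences (means and SD, n = 3). The passenger share is 5.60% in chr2, 1.60% in se-2 and 5.62% in WT, and miR158 leads the pool in chr2 and WT while miR166 leads it in se-2.

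Features of the entries are given by call, as a description. No test used the first base or the length, while the filter used the level and the WT libraries were part of the fit. A first base U, the base preferred by AGO1, was found in 65.3% of the 101 entries higher in chr2, 44.7% of the 85 lower and 71.1% of the 38 not called. A length of 21 nt was found in 75.2% of those higher, 62.4% of those lower and 89.5% of those not called. The mean level over the 6 libraries had a median of 334 CPM in those higher and 87.5 CPM in those lower. The WT mean was nearer chr2 than se-2 in 86 of the 101 higher and 74 of the 85 lower, and lay between the mutants in 57 of the higher and 43 of the lower. It was above both mutants in 40 of the higher, and below both in 39 of the lower. Of the 61 entries named by the rule, 45 lie outside protein-coding genes, 8 in introns and 8 in exons outside the coding sequence.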

How the data were processed

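Small RNA of 19 to 24 nt from leaves was sequenced in 9 libraries, 3 each of chr2, se-2 and WT, per the labels' protocols. Per the submitters' processing notes, Bowtie 1.1.2 and the TAIR10 genome were used. The authors deposited raw read counts per mature miRNA entry, with no normalization, per the files themselves. How reads were assigned to entries, on which annotation, and how reads with several matches were treated is not given in these sources. All 427 entries were matched by name to the RefSeq annotation of TAIR10.1. Among the 347 entries compared, 101 share a mature sequence with another, and their counts are not independent.

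Entries passing filterByExpr over the 6 chr2 and se-2 libraries were tested with edgeR 4.0.16 (quasi-likelihood, robust, TMM, limma 3.58.1, R 4.3.3) in a fit of all 9 libraries, contrast chr2 minus se-2, with Benjamini-Hochberg adjustment and a limit of 0.05. Adjusted p-values are from edgeR throughout. Arm ratios were tested with diffSpliceDGE on hairpins with a mean of at least 20 counts. Family sums over distinct sequences were tested by quasi-likelihood, as the entries were. Guide arms of conserved families were taken from a list by family. A floor of 3 counts over a group served for groups at 0. CPM values are TMM-scaled.

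Named entries were the 12 largest differences each way among those called without overlap and with at least 50 CPM on average, the 10 most abundant sequences, the 3 most abundant tested entries of each of 17 lists, the 8 largest family changes each way, and the 10 largest arm differences with each arm at 10 counts or more. The entries, the lists and this rule were chosen with earlier results of these data known. The alternatives were other scalings (size factors from DESeq2 1.42.0, the totals, reference scaling with and without miR8175), the test, filters, copies, a replicate block, and each library left out. Scripts were tested on simulated counts. No library was a copy of another, as replicates differed beyond counting noise in a chi-square test (2.87 to 96.5 per degree of freedom).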

Additional observations from a re-analysis of the deposited data

How the results depend on the processing

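The counts of entries higher in chr2 stayed within 1.5 times of 101 under every alternative run. The number lower was 85 with TMM, 33 on reference scaling, 23 on that scaling without miR8175 and 143 with no filter on low counts. Families lower in chr2 numbered 51, and 22 on reference scaling. The passenger share was higher in chr2 by 4.0 percentage points, by 2.76 without miR398 and by 7.26 over distinct sequences. The log2 ratio of summed counts was 2.27, and 2.81 over distinct sequences. With a replicate block, 100 entries were higher and 85 lower. Same-numbered libraries did not deviate together (correlations of -0.09, 0.02 and -0.10, none matching its own number best), so the numbers were not taken as pairs. Leaving out each library in turn gave 79 to 91 entries higher and 76 to 110 lower.

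Among single entries, ath-miR159a changed sign on total counts (-0.071), with no filter (-0.019) and without se-2 replicate 3 (range -0.02 to 0.665 over the libraries left out), and miR171a-5p on total counts (-0.48). On reference scaling, with the value without miR8175 after it, the log2 fold change turned positive for miR166a-3p (1.44, 1.74), miR171a-3p (1.44, 1.71), miR472-3p (1.35, 1.64), miR4245 (1.04, 1.355), miR319b (0.99, 1.30), miR472-5p (0.49, 0.79), miR8175 (0.40, 0.65) and miR405d (0.16, 0.48). It turned positive without miR8175 alone for miR2112-3p (0.22), miR395a (0.073), miR395d (0.14) and miR393a-3p (0.079). The cause of these changes was not tested. Of the named entries lower in chr2, miR839-5p, miR822-5p, miR822-3p, miR863-5p, miR5642a, miR399a and miR404 kept their sign but not their call on that last scaling. Leaving out se-2 replicate 1 (log2 -0.96) or chr2 replicate 2 (-0.80) brought miR4245 past the limit. The counts behind se-2 values limit what can be read for entries below about 10 CPM.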
